A study of Mus musculus with 6 samples.

Results

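Claudins are the membrane proteins that form the strands of tight junctions, and 8 claudins of epithelia (Cldn1, Cldn3, Cldn4, Cldn7, Cldn8, Cldn10, Cldn16 and Cldn19) were taken by gene name together with occludin (Ocln) and the scaffold protein ZO-3 (Tjp3). Of these 10 genes, 9 had a row among the 23594 genes of the count table and 8 were among the 20114 genes tested. Cldn16 had no row and was not analysed here, and Cldn3 had too few counts to be tested. They were picked by name and function, with earlier results of these data known, and no measured value entered the rule.

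RNA was sequenced from laser-captured tissue of mandibular first molars, taken at the apical side of the furcation development region (FDR), where the roots divide. The mice were of strain C57BL/6 and 4.5 days old (PN4.5), and the 2 groups were control, labelled as wild type and taken from the same litters as the mutants, and Lhx6-/-, with 3 libraries each. Lhx6-/- mice were homozygous for the Lhx6-CreER knock-in allele, which abolishes Lhx6 function in all cells rather than in 1 cell type. Each library combined tissue of 8 molars. Mice of both sexes were used in the study, but the sex and number of mice behind a library are not given in the sources used here. Replicates are separate libraries, and p-values measure the spread between such pools.

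Tight junctions seal the space between neighbouring epithelial cells near their apical surface. Some claudins close this path, others form channels for ions, and the mix that a tissue makes sets what can pass. Occludin joins the strands, and the ZO scaffold proteins tie them to actin. In the tooth, tight junctions are known from the enamel organ and from ameloblasts, the cells that make enamel. The root sheath that grows from the cervical end of the enamel organ is also an epithelium. Claudins are not limited to epithelia: Cldn5 seals endothelium, Cldn19 is found in Schwann cells, and Cldn11 in oligodendrocytes.

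The promoters of the 3 most abundant of these genes are shown because the level of a transcript is read against where it starts. They are RefSeq sequences of GRCm38.p6, from 250 bases before a start to 50 bases after it, written on the gene's strand. Capitals mark matches to the motifs searched on both strands: the GC box GGGCGG, the core TAATTA that LIM homeodomain proteins such as Lhx6 can bind, and the SOX core ACAAAG, with the reverse complements CCGCCC and CTTTGT.
Cldn1, chr16:26371790-26372089, minus strand: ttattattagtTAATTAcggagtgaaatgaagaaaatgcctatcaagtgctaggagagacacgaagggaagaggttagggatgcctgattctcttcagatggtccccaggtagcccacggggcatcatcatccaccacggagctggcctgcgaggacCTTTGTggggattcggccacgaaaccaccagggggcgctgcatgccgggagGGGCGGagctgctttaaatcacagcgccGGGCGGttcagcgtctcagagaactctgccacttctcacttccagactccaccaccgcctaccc
Cldn10 promoter 1, chr14:118787621-118787920, plus strand: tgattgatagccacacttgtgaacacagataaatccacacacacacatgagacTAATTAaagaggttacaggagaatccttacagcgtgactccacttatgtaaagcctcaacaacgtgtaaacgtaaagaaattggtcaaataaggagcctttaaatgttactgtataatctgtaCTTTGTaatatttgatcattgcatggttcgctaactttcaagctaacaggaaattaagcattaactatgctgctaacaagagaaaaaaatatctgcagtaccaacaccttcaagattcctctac
Cldn10 promoter 2, chr14:118854700-118854999, plus strand: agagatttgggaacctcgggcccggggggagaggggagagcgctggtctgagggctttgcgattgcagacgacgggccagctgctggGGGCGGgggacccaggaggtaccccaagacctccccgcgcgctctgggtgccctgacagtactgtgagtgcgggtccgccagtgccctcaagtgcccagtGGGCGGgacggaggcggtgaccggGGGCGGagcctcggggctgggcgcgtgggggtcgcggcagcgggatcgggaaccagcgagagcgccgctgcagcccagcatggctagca
Cldn19 promoter 1, chr4:119255191-119255490, plus strand: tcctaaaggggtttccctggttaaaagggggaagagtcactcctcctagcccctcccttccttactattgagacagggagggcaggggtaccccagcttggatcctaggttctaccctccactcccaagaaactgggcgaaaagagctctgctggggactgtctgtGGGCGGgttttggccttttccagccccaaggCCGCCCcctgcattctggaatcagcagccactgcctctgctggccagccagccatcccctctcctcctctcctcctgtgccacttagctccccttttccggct
The GC content was 56% for Cldn1, 36% and 72% for the Cldn10 pair and 59.3% for Cldn19, against a median of 52.7% over 32851 RefSeq promoters of the same length. The first Cldn10 promoter had no GC box and the second had 3. TAATTA began 239 bases before the start of Cldn1 and 197 bases before the first start of Cldn10, and in no other listed gene's promoter. It occurs in 5.29% of all promoters, the GC box in 35.7% and ACAAAG in 18.7%. The motifs AACCGGTT of grainyhead factors (0.146% of all promoters), TATAAA (13.6%) and CACCTG of Snail and Zeb factors (20.2%) were also searched. None of these 3 was in the printed sequences. A match describes letters and is no measured site. Cldn19 has a second listed promoter, chr4:119255219-119255518 (60% GC), which overlaps the printed one and is not shown. The deposited values are per gene, so transcripts from the starts of Cldn10, or from those of Cldn19, cannot be told apart.

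Totals of estimated counts per library ran from 60132323 to 76157433. Levels are given as counts per 1000000 of the scaled library (CPM). Lhx6, the targeted gene, was at 27.8, 18.2 and 21.9 CPM in control replicates 1, 2 and 3 and at 12.8, 9.82 and 10.5 CPM in Lhx6-/- replicates 1, 2 and 3, so the labels and the transcript went together. Libraries are named in this order throughout. Dental epithelium was present in every library. Krt14, the keratin of basal epithelium, was at 313, 450 and 325 CPM in control and 223, 230 and 257 CPM in Lhx6-/- tissue. Cdh1 (E-cadherin) was at 40.2, 61.0 and 42.6 CPM against 27.1, 39.5 and 45.5 CPM. The ameloblast product Amelx held 83300 to 110000 CPM. None of the 13 dental epithelium markers was at 0 in all libraries.

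Cldn1, a barrier claudin of epidermis and other stratified epithelia, was the main claudin among those listed. It held 82.6% to 91.5% of their summed CPM in each library. Divided by exon length, its mean level was 27.3 CPM per kilobase, above the next gene in 6 of 6 libraries. Cldn19 followed at 2.75 CPM per kilobase (1.18 to 3.93) and Cldn10 at 2.17 (1.51 to 3.52). Cldn19 was above Cldn10 in 4 of 6 libraries, so the order of these claudins is not set beyond the spread of the libraries. Ocln was at 0.559 CPM per kilobase (0.333 to 0.982), below Cldn10 in 6 of 6 libraries and above Cldn4 in 5 of 6. Cldn4 was at 0.41 CPM per kilobase (0.133 to 0.651), above Cldn8 in 5 of 6. Cldn8 at 0.174 and Tjp3 at 0.164 CPM per kilobase had ranges that overlapped nearly entirely, and Cldn7 at 0.0592 and Cldn3 at 0.0579 were last. The lowest genes rest on few reads, and the order among Cldn8, Tjp3, Cldn7 and Cldn3 was not resolved.

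**Figure D1:**
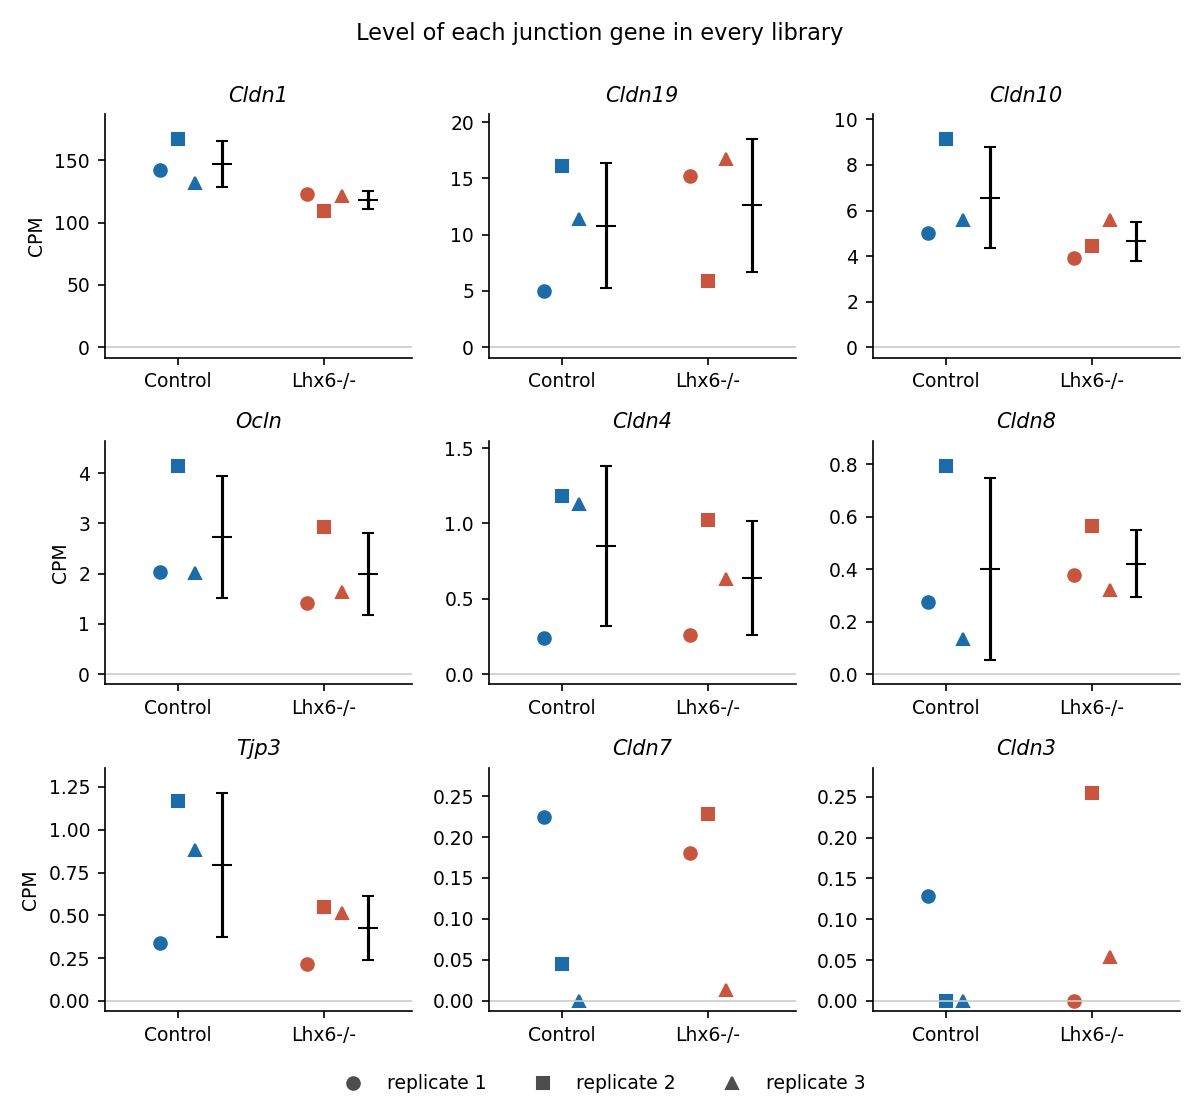
Level in CPM (vertical axis, linear, one scale per panel) of the 9 genes with a row in each control and Lhx6-/- library. Symbols are replicates, and bars give the mean and SD of 3 libraries, left out for Cldn7 and Cldn3, whose counts were near 0. The groups are apart for Cldn1 alone, with 132 to 167 CPM in control and 109 to 123 CPM in Lhx6-/- tissue.

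Cldn1 lies on the minus strand at chr16:26356642-26371841 of mm10. Its level was 142, 167 and 132 CPM in control and 123, 109 and 121 CPM in Lhx6-/- tissue. All 3 Lhx6-/- libraries were below all 3 control libraries. Means of 147 ± 18.4 and 118 ± 7.34 CPM (SD, n = 3 each) put Lhx6-/- tissue at 80.0% of control. The log2 fold change was -0.32 (SE 0.09, 95% interval -0.52 to -0.12), with an unadjusted p of 0.00417 and an adjusted p of 0.231 from edgeR's quasi-likelihood test. Cldn1 thus passed an unadjusted threshold of 0.05, missed a change of 1.5-fold, and did not pass after adjustment over all genes. Among all genes tested, 5.07% were lower and 4.75% higher with p under 0.05 before adjustment. Of all genes tested, 7.68% were lower in Lhx6-/- tissue without overlap of the groups and 7.86% were higher without overlap (15.5% in either direction).

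Cldn10, a claudin that forms ion channels in kidney and secretory epithelia, lies on the plus strand at chr14:118787908-118875489. It was at 5.0, 9.13 and 5.60 CPM in control and 3.91, 4.44 and 5.60 CPM in Lhx6-/- tissue. Control replicate 2 was the highest library, and the groups overlapped, with control replicate 1 below Lhx6-/- replicate 3. The means were 6.57 ± 2.23 and 4.65 ± 0.865 CPM (SD, n = 3 each). The log2 fold change was -0.50 (SE 0.23, 95% interval -1.01 to 0.01), with an unadjusted p of 0.0556 and an adjusted p of 0.527 from edgeR.

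Cldn19 pairs with Cldn16 in kidney and is also a claudin of Schwann cell junctions. It lies on the plus strand at chr4:119255414-119262438. Its level was 5.04, 16.1 and 11.4 CPM in control and 15.2, 5.87 and 16.7 CPM in Lhx6-/- tissue. Each group had 1 low library, control replicate 1 and Lhx6-/- replicate 2, and the groups overlapped across almost their whole range. The means were 10.8 ± 5.54 and 12.6 ± 5.88 CPM (SD, n = 3 each), a log2 fold change of 0.22 (SE 0.61, 95% interval -1.40 to 1.83, edgeR adjusted p = 0.956). Its spread within groups, 0.85 and 0.83 as the SD of log2 CPM, exceeded the 0.18 and 0.09 of Cldn1. In the annotation, 90 of its exon bases (2.11%) face the antisense gene Gm12927, which has no row.

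Ocln, at chr13:100496507-100552718 on the minus strand, was at 2.04, 4.14 and 2.01 CPM in control and 1.41, 2.93 and 1.64 CPM in Lhx6-/- tissue. Replicate 2 was the highest in each group, and the groups overlapped. The log2 fold change was -0.46 (SE 0.36, 95% interval -1.24 to 0.33, edgeR adjusted p = 0.763). Tjp3, a scaffold protein of epithelial tight junctions at chr10:81273207-81291581 on the minus strand, was at 0.337, 1.17 and 0.879 CPM in control and 0.213, 0.551 and 0.511 CPM in Lhx6-/- tissue. Control replicate 1 lay among the Lhx6-/- libraries, and control replicates 2 and 3 lay above them. The mean in Lhx6-/- tissue was 53.4% of the control mean, yet the interval of the log2 fold change of -0.90 (SE 0.56) ran from -2.13 to 0.34 (edgeR adjusted p = 0.683). Tjp3 was read from 13 to 78 counts per library, and 40 of its exon bases (1.08%) are shared with Apba3 on the opposite strand, a gene at 26.1 CPM.

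Cldn4, a barrier claudin of simple and glandular epithelia at chr5:134945119-134946934 on the minus strand, had 15, 79 and 67 counts in control and 16, 76 and 47 counts in Lhx6-/- tissue. These correspond to 0.241, 1.18 and 1.13 CPM and 0.262, 1.02 and 0.632 CPM. Replicate 1 of each group was low, and the highest library was 4.91 times the lowest. Counting error does not cover that spread: the exact 95% Poisson intervals were 0.135 to 0.397 CPM for control replicate 1 and 0.936 to 1.47 CPM for control replicate 2. The log2 fold change was -0.41 (SE 0.63, 95% interval -1.79 to 0.97, edgeR adjusted p = 0.905). Cldn8, a claudin of distal kidney tubule and other tight epithelia at chr16:88560828-88563183 on the minus strand, had 17, 53 and 8 counts in control and 23, 42 and 24 counts in Lhx6-/- tissue. The Lhx6-/- libraries all lay within the control range. Its log2 fold change was 0.07 (SE 0.67, 95% interval -1.39 to 1.52, edgeR adjusted p = 0.989).

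Cldn7 and Cldn3 were at the limit of detection in this tissue. Cldn7, at chr11:69964779-69967885 on the plus strand, had 14, 3 and 0 counts in control and 11, 17 and 1 counts in Lhx6-/- tissue. Both groups held libraries at or under 3 counts, taken here as the limit that a count of 0 allows (0.0507 CPM in control replicate 3, against 0.0624 CPM as the upper bound of the exact 95% Poisson interval). No difference was detectable at this depth (log2 fold change 0.63, SE 1.22, 95% interval -2.03 to 3.29, edgeR adjusted p = 0.931). Cldn3, at chr5:134986214-134987472 on the plus strand, had 8, 0 and 0 counts in control and 0, 19 and 4 counts in Lhx6-/- tissue. By the same limit of 3 counts, a count of 0 allows up to 0.0449, 0.0507 and 0.0491 CPM in the 3 libraries without a read (0.0552, 0.0624 and 0.0604 CPM by the exact Poisson interval). Intervals and limits cover counting error only.

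As a group, the listed genes did not pass the rule of a 1.5-fold change with p under 0.05 before adjustment, which 3.28% of all tested genes met (1.71% lower, 1.58% higher). None of the 8 tested genes met it, and none had an adjusted p under 0.05 from edgeR (0.403% of all genes did), while 1 of 8, Cldn1, had p under 0.05 before adjustment (9.81% of all genes did). DESeq2 gave 1 gene, Cldn1, with an adjusted p of 0.0498, and the share of all genes under 0.05 in that fit is not given here. Log2 fold changes were below 0 for 5 of 8 genes (50.3% of all genes) with a median of -0.37, against -0.002 over all tested genes. Without control replicate 2 the median was -0.06. Cldn10 and Tjp3 met the rule without control replicate 1, Cldn10 alone without control replicate 3 or without Lhx6-/- replicate 3, and Ocln alone without Lhx6-/- replicate 2.

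**Figure D2:**
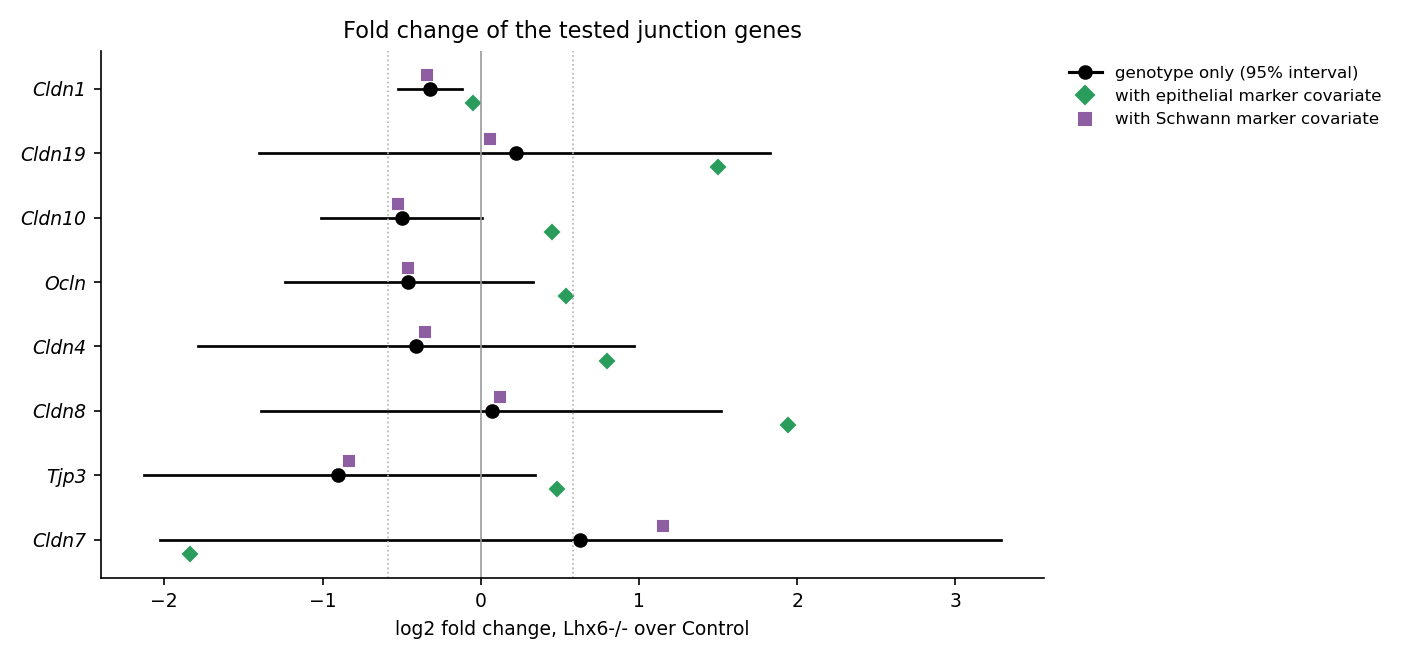
Log2 fold change of Lhx6-/- over control (horizontal axis) for the 8 tested genes, with 95% intervals from edgeR. Diamonds and squares give the value with the summed epithelial or Schwann cell markers as a covariate, and dotted lines mark 1.5-fold. Of the 8 intervals, that of Cldn1 alone lies on one side of 0, and the diamond for Cldn1 stands at -0.05.

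Markers of dental epithelium were lower in Lhx6-/- tissue along with Cldn1. Their summed level was 1822, 2586 and 1927 CPM in control and 1405, 1480 and 1659 CPM in Lhx6-/- tissue, and no library of one group reached the other. All 13 of 13 markers had log2 fold changes below 0, with a median of -0.39, and 5 met the rule, among them Krt14, Krt5, Krt17 and Dsc3, none of the 5 at an adjusted p under 0.05 from edgeR. Unadjusted p-values were under 0.05 for 8 of the 13. In bulk tissue, fewer cells of a type and less RNA per cell cannot be told apart.

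Set against the epithelial markers, Cldn1 no longer separated the groups. Per 1000 CPM of the 9 markers that are in no other list, Cldn1 was at 90.5, 76.3 and 79.5 in control and 102, 87.9 and 87.2 in Lhx6-/- tissue. The highest control library lay above 2 Lhx6-/- libraries, and the means were 82.1 ± 7.42 and 92.4 ± 8.37 (SD, n = 3 each). For Cldn10 this ratio was 3.18, 4.16 and 3.38 in control and 3.26, 3.58 and 4.03 in Lhx6-/- tissue, with means of 3.57 ± 0.519 and 3.62 ± 0.386 (SD, n = 3 each). Its highest library was 2.33 times the lowest in CPM and 1.29 times per CPM of all 13 markers. For Ocln the ratio to the 9 markers was 1.47 ± 0.368 and 1.57 ± 0.681, and for Tjp3 it was 0.426 ± 0.183 and 0.329 ± 0.137 (SD, n = 3 each). With the summed markers as a covariate in edgeR, the log2 fold change was -0.05 for Cldn1 (adjusted p = 0.919), 0.45 for Cldn10, 0.54 for Ocln and 0.48 for Tjp3, and the median of the 8 genes was 0.51. The summed CPM of the 9 listed genes per 1000 CPM of markers was 98.9, 91.2 and 92.2 in control and 120, 101 and 106 in Lhx6-/- tissue, higher in the latter without overlap. Without Cldn19 these sums were 95.7, 83.8 and 85.4 in control and 107, 96.0 and 93.5 in Lhx6-/- tissue, and the groups overlapped. Since the marker sums did not overlap between groups either, genotype and epithelial share cannot be told apart in 6 libraries.

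Cldn19 varied with the markers of another cell type. The summed level of 10 Schwann cell markers was 301, 735 and 530 CPM in control and 626, 329 and 755 CPM in Lhx6-/- tissue, which put the 6 libraries in the same order as Cldn19. Pearson's r between Cldn19 and the summed markers on the log2 scale was 0.994 (exact permutation p = 0.00139, the smallest that 6 libraries allow) and Spearman's rho was 1 (exact permutation p = 0.00278). After adjustment over 72 pairs, 8 genes with 9 marker lists, both were 0.1. Without the libraries farthest from the median, control replicate 1 and Lhx6-/- replicate 2, r was 0.952.

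Per 1000 CPM of Schwann cell markers, Cldn19 was at 16.7, 21.9 and 21.4 in control and 24.2, 17.9 and 22.2 in Lhx6-/- tissue. The highest library was 3.32 times the lowest for Cldn19 and 1.45 times for this ratio, and the groups overlapped, with means of 20.0 ± 2.85 and 21.4 ± 3.25 (SD, n = 3 each). With the summed Schwann markers as a covariate, added after their relation to Cldn19 was seen, the log2 fold change of Cldn19 was 0.06 with an SE of 0.12, where the fit for genotype alone had an SE of 0.61 (edgeR adjusted p = 0.923). The markers themselves were higher in Lhx6-/- tissue in 9 of 10 cases, and 1 met the rule, Cdh19, an adhesion protein of the Schwann lineage. Cdh19 did not follow the order of Cldn19, since it was at 0.562, 0.763 and 0.575 CPM in control and 2.42, 2.09 and 1.79 CPM in Lhx6-/- tissue.

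**Figure D3:**
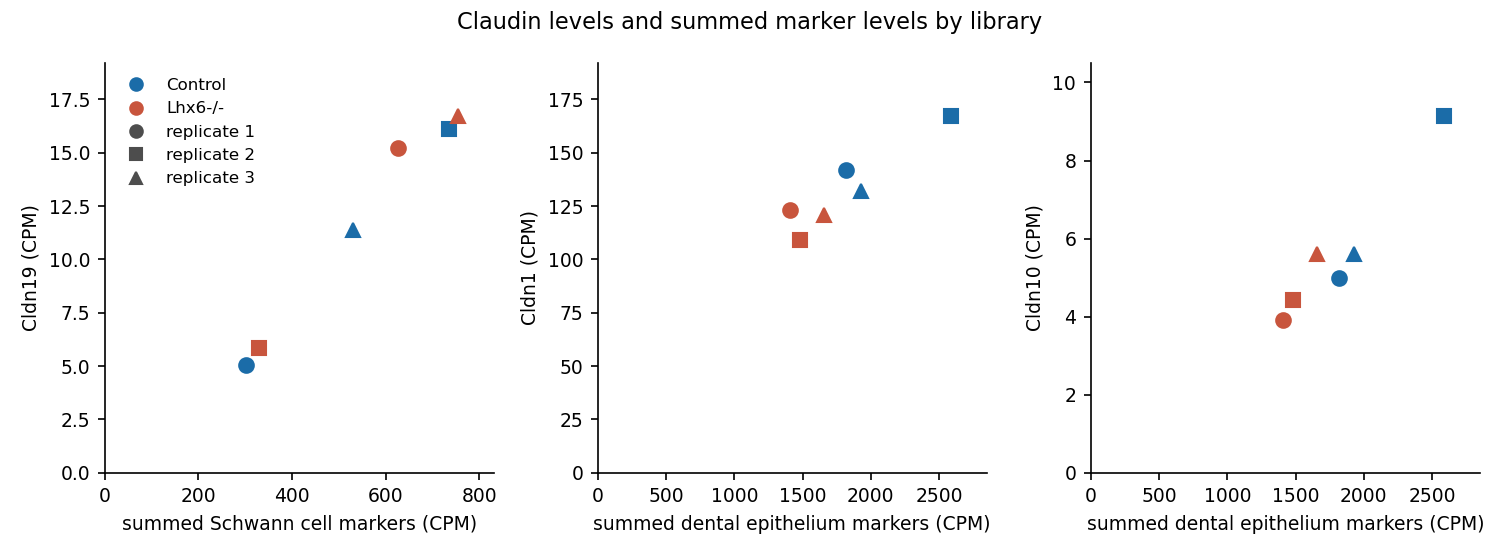
Level in CPM of Cldn19 against the summed level of 10 Schwann cell markers, and of Cldn1 and Cldn10 against 13 dental epithelium markers, in 6 libraries (linear axes from 0, colours for groups, symbols for replicates). Cldn19 and its markers put the 6 libraries in the same order, from 5.04 CPM at 301 CPM of markers to 16.7 CPM at 755 CPM.

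Markers of some other cell types also differed in level between the groups, and whether they account for the levels above was not tested. Relations over the 6 libraries were computed for all 9 marker lists. Cldn1 went with the blood markers at a Pearson's r of 0.945 and a Spearman's rho of 1. Adjusted over the 72 pairs, the exact permutation p-values were 0.2 and 0.1. With the dental epithelium markers, Cldn1 had an r of 0.912 and a rho of 0.771 (adjusted permutation p = 0.275 and 0.617). Cldn10 had an r of 0.957 and a rho of 0.829 with them (adjusted permutation p = 0.2 and 0.6). Without control replicate 2 and Lhx6-/- replicate 1, that r was 0.7. Cldn4 with the mesenchyme markers had an r of -0.764 and a rho of -0.943 (adjusted permutation p = 0.388 and 0.4). Blood markers (5 of 5 lower, 3 by the rule, 4 with p under 0.05 before adjustment) summed to 3107, 3689 and 2960 CPM in control and 2322, 1590 and 2224 CPM in Lhx6-/- tissue. Endothelial markers (10 of 10 higher, none by the rule, 6 with p under 0.05 before adjustment) summed to 448 to 457 CPM in control and 498 to 570 CPM in Lhx6-/- tissue. Odontoblast markers (4 of 4 higher, none by the rule, 1 with p under 0.05 before adjustment) summed to 5286 to 5795 CPM in control and 6443 to 7099 CPM in Lhx6-/- tissue. Mesenchyme markers (8 of 9 higher, none by the rule, 5 with p under 0.05 before adjustment) summed to 94460 to 119400 CPM and overlapped between groups, as did immune markers (5 of 6 lower) at 305 to 352 CPM and muscle markers at 826 to 1369 CPM. Ameloblast markers (6 of 8 lower, none by the rule) summed to 115200 to 146600 CPM, nearly all of it Amelx and Ambn, and overlapped too. Amtn (amelotin) of that list was at 283, 280 and 277 CPM in control and 210, 169 and 200 CPM in Lhx6-/- tissue (log2 fold change -0.54, edgeR adjusted p = 0.021). Transcripts of 4 Y-linked genes summed to 17.4, 58.0 and 14.6 CPM in control and 55.1, 92.1 and 88.5 CPM in Lhx6-/- tissue, uneven within control as well as between groups. With that sum as a covariate in edgeR, Cldn1 was at a log2 fold change of -0.51 (adjusted p = 0.0470) and Cldn10 at -1.14 (adjusted p = 0.0479). Cldn10, Ocln (-1.39) and Tjp3 (-1.82) then met the rule, as did 1174 of all tested genes in place of 660.

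Among the other claudins, 9 of the 11 with a row were tested. Of these, 5 were higher and 4 lower (median log2 fold change 0.01). Cldn5, the claudin of endothelial tight junctions, was at 13.6, 15.6 and 15.0 CPM in control and 24.0, 22.8 and 21.8 CPM in Lhx6-/- tissue. It rose by 0.64 on the log2 scale (SE 0.09, edgeR adjusted p = 0.0140), with every Lhx6-/- library above every control library. The adjusted p exceeded 0.05 without control replicate 3 (0.0837), Lhx6-/- replicate 1 (0.0836) or Lhx6-/- replicate 2 (0.0941), where log2 fold changes from edgeR were 0.60 to 0.65. Endothelial markers were higher by a median of 0.22 on the same scale. Per 1000 CPM of these markers, Cldn5 was at 29.8, 34.8 and 32.8 in control and 42.1, 44.8 and 43.8 in Lhx6-/- tissue, still without overlap. Cldn15, a channel claudin of intestine, met the rule downward (0.964, 0.643 and 1.47 CPM against 0.687, 0.349 and 0.470 CPM, log2 fold change -1.03, SE 0.46, edgeR adjusted p = 0.495), and its groups overlapped. It had p under 0.05 before adjustment in 11 of 19 alternative fits. That was lost without control replicate 1 (-1.07), control replicate 3 (-0.68), Lhx6-/- replicate 2 (-0.82) or Lhx6-/- replicate 3 (-0.99), and with the Y-linked covariate the value was -0.04. Cldn20, next after Cldn5 in CPM among them, was at 17.3 ± 1.36 and 14.6 ± 0.585 CPM (SD, n = 3 each). Its unadjusted p from edgeR was 0.0298 (adjusted p = 0.442), with every Lhx6-/- library below every control library. The single exon of Cldn20 lies inside the gene body of Tfb1m on the other strand. Cldn11 was higher at a log2 fold change of 0.40 (SE 0.15, edgeR unadjusted p = 0.025, adjusted p = 0.415), and its groups overlapped.

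Other genes of the tight junction had medians near 0. None of 10 tested membrane proteins other than claudins met the rule (5 higher, 5 lower, median log2 fold change -0.02), and 2, Jam3 and Clmp, had p under 0.05 before adjustment. Clmp, an adhesion molecule at junctions, was at 113 ± 8.90 and 130 ± 10.1 CPM, and Ildr2, of the tricellular junction family, at 106 ± 8.97 and 107 ± 14.2 CPM (SD, n = 3 each). None of 26 plaque and polarity genes met the rule (15 higher, 11 lower, median 0.01), and 3 (Cgnl1, Amot and Amotl1) had p under 0.05 before adjustment. Highest in CPM were Amotl1, an angiomotin relative (log2 fold change 0.22, SE 0.07, edgeR adjusted p = 0.307), and Ybx3, the ZO-1 binding factor (-0.14, SE 0.07, edgeR adjusted p = 0.555). Tjp1, the ZO-1 scaffold related to Tjp3, was at 80.8, 104 and 96.0 CPM in control and 85.4, 100 and 104 CPM in Lhx6-/- tissue, with a log2 fold change of 0.04 with a 95% interval of -0.18 to 0.26.

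Genes of the adherens junction and desmosome, the other contacts of epithelial cells, were lower in 13 of 13 cases, with a median log2 fold change of -0.36. By the rule, 5 fell: the desmosomal plaque protein Dsp (-0.71), the desmosomal cadherins Dsg3 (-1.26), Dsc2 (-0.84) and Dsc3 (-0.80), and the adhesion molecule Nectin4 (-0.68). Adjusted over all genes by edgeR with genotype alone, none of these had p under 0.05. With DESeq2 the adjusted p was 2.81e-05 for Dsp and 0.0411 for Nectin4, with the replicate block in edgeR 0.0193 for Dsp, 0.011 for Dsg3 and 0.0021 for Dsc3, and with the Y-linked covariate under 0.05 for all 5. Without control replicate 2, Dsg3 (-0.67) alone still met the rule, and Dsp was at -0.50, Dsc2 at -0.37, Dsc3 at -0.58 and Nectin4 at -0.35. With the epithelial covariate the values were -0.20 for Dsp, 0.16 for Dsg3, 0.43 for Dsc2, -0.29 for Dsc3 and 0.18 for Nectin4. Dsp was at 121, 194 and 144 CPM in control and 94.6, 98.9 and 86.6 CPM in Lhx6-/- tissue, with no overlap. Perp, highest in CPM, was at 190 ± 50.6 and 157 ± 21.3 CPM (SD, n = 3 each). Dsc3, Cdh1 and Perp are also among the epithelial markers.

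Of 19 genes known to act on claudins, which include grainyhead and Ovol factors, epithelial splicing factors, proteases with their inhibitors, and the kinase Wnk4, 15 were lower and 4 higher (median log2 fold change -0.39). Wnk4, a kinase of ion transport, was at 15.7, 19.0 and 17.6 CPM in control and 11.8, 11.5 and 9.42 CPM in Lhx6-/- tissue. It fell by 0.68 on the log2 scale (SE 0.12, edgeR adjusted p = 0.0367), without overlap between groups, and stood between -0.76 and -0.58 in 19 alternative fits. Its adjusted p from edgeR exceeded 0.05 in 5 of the 6 fits without 1 library (0.0924 to 0.192), all but that without control replicate 1. The epithelial repressor Ovol1 met the rule at a log2 fold change of -1.44 from about 1 CPM (SE 0.56, edgeR adjusted p = 0.411). It lost that call without control replicate 3 (-0.89), Lhx6-/- replicate 1 (-1.07) or Lhx6-/- replicate 2 (-1.47), and with the epithelial (-1.18) or Y-linked (-1.26) covariate. The other genes of this list with p under 0.05 before adjustment were Esrp1 (-0.39), Esrp2 (-0.53) and Klf5 (-0.42), which were lower, and the repressors of epithelial genes Snai1 (0.35) and Zeb1 (0.19), which were higher, all with adjusted p over 0.05 from edgeR. Esrp1 is also among the epithelial markers. Zeb2, a relative of Zeb1, was at 68.9 ± 6.28 and 71.8 ± 0.882 CPM, and Spint2, a protease inhibitor, at 44.5 ± 8.79 and 36.8 ± 4.45 CPM (SD, n = 3 each). Over these 5 lists, 77 genes were tested and 9 met the rule, 8 of them lower, and Cldn5 and Wnk4 had p under 0.05 after adjustment in edgeR. That count of 9 was 5 without control replicate 2 and 14 without control replicate 1. Over all genes, 714 and 968 met the rule in these fits, against 660 with every library.

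**Figure D4:**
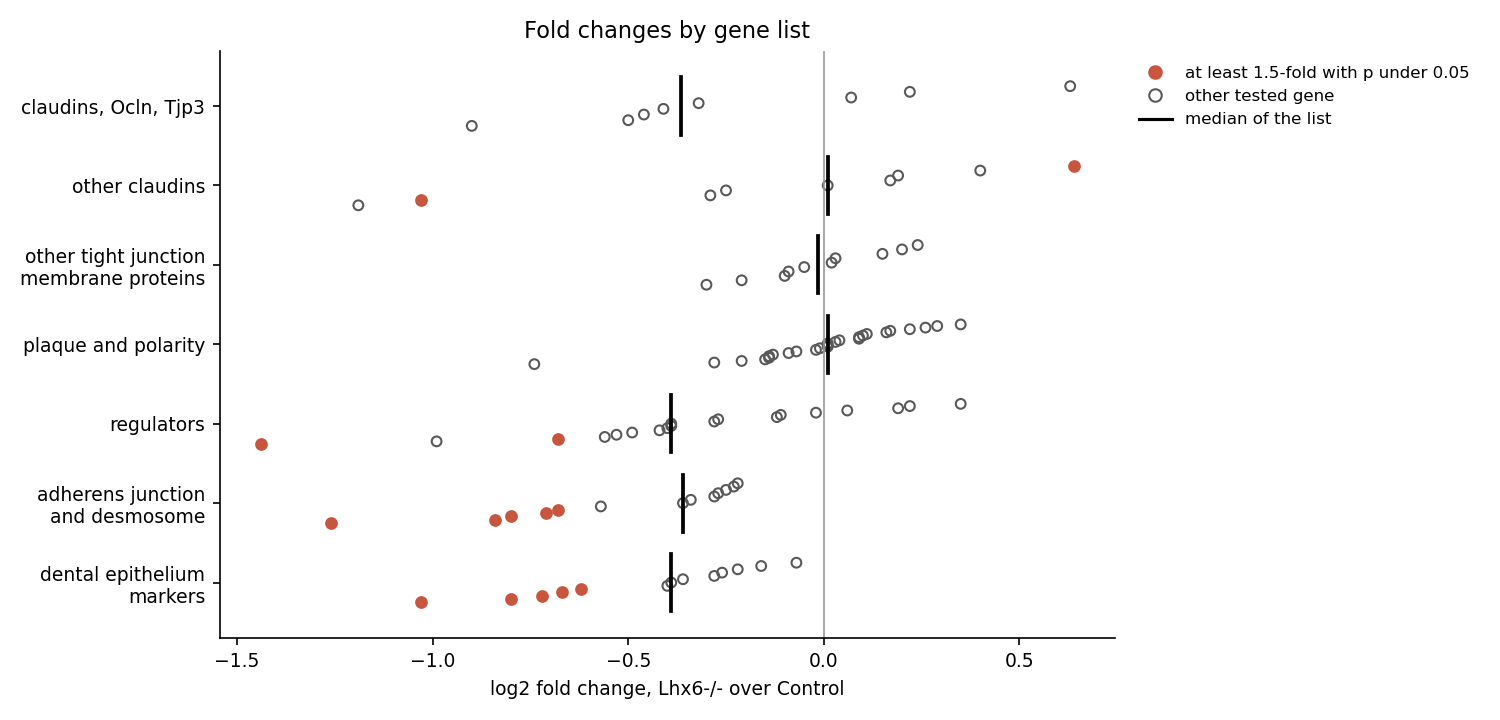
Log2 fold change of Lhx6-/- over control (horizontal axis) for each tested gene of 7 lists, with filled points for genes that met the rule and a bar at the list's median. The medians of the listed claudins with Ocln and Tjp3 (-0.37), of regulators (-0.39), of adherens junction and desmosome genes (-0.36) and of epithelial markers (-0.39) lie close together. These lists share genes: Esrp1 of the regulators, and Dsc3, Cdh1 and Perp of the adherens junction and desmosome list, are also epithelial markers. Without control replicate 2 the median of -0.37 was -0.06. Those of other claudins (0.01), membrane proteins (-0.02) and plaque genes (0.01) lie near 0.

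Across the 6 libraries, control replicate 2 was above the gene's own mean for 7 of the 8 tested genes, all but Cldn7. Their mean profile, as log2 CPM centred per gene, was -0.27, 0.65 and -0.18 in control and -0.25, 0.21 and -0.16 in Lhx6-/- libraries. The closest pair was Cldn1 and Cldn10, with a root mean square difference of 0.25, and then Cldn10 and Ocln with 0.36 and Cldn4 and Tjp3 with 0.388. Cldn7, Cldn4 and Cldn19 lay farthest from the mean profile, at 1.31, 0.729 and 0.718, followed by Tjp3 at 0.585 and Cldn8 at 0.509. All of these exceed the median of 0.36 over 14981 genes outside the lists. Only Cldn1 (0.293), Cldn10 (0.264) and Ocln (0.241) lay nearer than that median. Outside the lists, the genes nearest to it over 6 libraries were Dcdc2a (0.117), Gm12254 (0.118), Gm10705 (0.121), Ppp2r2c (0.124) and Atp1b1 (0.125), where the median of 14981 genes was 0.36. Of the epithelial markers, Epcam lay nearest (0.187), and it was at 7.02 ± 1.65 CPM in control and 6.67 ± 1.16 CPM in Lhx6-/- tissue (SD, n = 3 each).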

How the data were processed

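RNA of 3 control and 3 Lhx6-/- libraries was read as single-end reads of 75 bases. After trimming, the authors aligned reads with STAR 2.6.1d to mm10 and quantified genes in Partek (submitters' processing notes and the paper's methods). The counter, annotation and use of strand are not given in the sources used here. The authors deposited estimated counts per gene, not normalized, and each gene has 10 or more counts in some library. Their methods name RPKM, which was not used. A second deposited table holds their own comparison (ratios, fold changes, p-values, false discovery rates), which was not used, and other columns of totals, maxima and means per gene, deposited as 1 + CPM of a library total, which fixed the order of gene names (largest relative deviation 1.71e-07). Totals per library were 79.96% to 85.19% of that library total.

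Estimated counts were rounded and tested with edgeR 4.0.16 in R 4.3.3 (quasi-likelihood, robust, TMM, filterByExpr, genotype alone, two-sided), with Benjamini-Hochberg adjustment over all tested genes. The biological coefficient of variation was 0.202, and SE was taken as |log2 fold change| / √F. Where groups do not overlap, every library of one lies beyond every library of the other. Precision was set by the number of libraries and, at few counts, by counting error. Gene coordinates are those of GENCODE vM21 on mm10, 1-based. For 22970 genes the authors' table gave the same position once 1 was subtracted from its end. Of the gene names, 23180 were in GENCODE vM21, whose exons gave the lengths.

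Named were all listed genes, the genes of other lists that met the rule, the 2 most abundant of each list, defining markers, and the 5 nearest profiles. Tjp1, Cdh19, Amtn and Epcam, and genes named for an unadjusted p, were picked with values in view. Some members of the marker lists are not reported here. The listed genes, gene lists and tests were chosen with earlier results of these data known. Relations to markers used log2(CPM + 0.01). The code was tested on simulated data. Alternative fits were other scalings, DESeq2 1.42.0, limma 3.58.1 (trend and voom), other filters, a non-robust fit, a replicate block, covariates and leaving out each library. Plots used matplotlib 3.10.9 (Python 3.11.15).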

Additional observations from a re-analysis of the deposited data

How the results depend on the processing

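Of the 8 tested genes, none met the rule of 1.5-fold with an unadjusted p under 0.05. This count was 3 with the Y-linked covariate (Cldn10, Ocln and Tjp3) and 0 to 2 when each library was left out in turn (2 without control replicate 1). Over all genes 1174 met it with the Y-linked covariate and 924 with the epithelial covariate, against 660. With a library left out it was 607 to 968 genes (968 without control replicate 1). The count with an adjusted p under 0.05 was 0, against 1 with DESeq2 (Cldn1) and 2 with the Y-linked covariate (Cldn1 and Cldn10). The share of all genes at that threshold is not given here for DESeq2 or the Y-linked covariate. These counts therefore have no background beside them. The median log2 fold change of -0.37 was 0.51 with the epithelial covariate, -1.19 with the Y-linked covariate and -0.48 to -0.06 with a library left out. In the other junction lists 9 genes met the rule, against 5 with the epithelial covariate, 18 with the Y-linked covariate and 5 to 14 with a library left out. With the epithelial covariate the direction turned for Cldn4 (0.80), Cldn7 (-1.84), Cldn10 (0.45), Ocln (0.54), Tjp3 (0.48), Dsc2 (0.43), Dsg3 (0.16) and Nectin4 (0.18). It turned with the Y-linked covariate for Cldn8 (-1.24) and Cldn19 (-0.22). Leaving out a library gave -0.34 to 1.04 for Cldn8 (below 0 without control replicate 1 or 3 or Lhx6-/- replicate 2) and -0.12 to 0.62 for Cldn19 (below 0 without control replicate 1 or Lhx6-/- replicate 3). The cause was not tested. Cldn1 stayed below 0 in 19 of 19 alternative fits (-0.51 to -0.05) and had an unadjusted p under 0.05 in 18 of them, the exception being the epithelial covariate. Its adjusted p ranged from 0.0470 to 0.919 over these fits. Cldn5 had an adjusted p under 0.05 in 14 of 19 fits and Wnk4 in 10 of 19. With a 2-fold threshold none of the 8 genes met the rule.

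Groups share replicate numbers, and deviations of libraries with the same number correlated at 0.0256, -0.0288 and -0.0314. Those of libraries with different numbers correlated at -0.0639 to 0.0951. With so few libraries per group, these values cannot decide whether the libraries were paired. The paper's methods describe littermate mutants and sequencing of pairs of samples, without naming the pairs. The deposited library names number the Lhx6-/- libraries differently, so a block by replicate number need not follow the true pairs. With a replicate block 0 of the 8 genes met the rule, their median was -0.33, and 8 genes of the other junction lists and 652 of all genes met it, against 660. Cldn10 had an unadjusted p of 0.0493 in edgeR with the block. For Cldn3 and Cldn7, with at most 19 counts in any library, depth limits what can be seen. The median log2 fold change of all genes was -0.002, and 0.007 and 0.014 with upper-quartile and total-count scaling.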
